A study of Mus musculus with 18 samples.

Results

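Retinal ganglion cells are the output neurons of the retina, and 10 genes that are widely used to mark them were followed here through light damage and treatment with TD139. The genes were chosen by name, as Rbpms, Pou4f1, Pou4f2, Isl1, Sncg, Thy1, Slc17a6, Nefl, Nefm and Nefh, and all 10 of them were among the 23420 gene symbols counted and among the 15196 genes that passed the filter on low counts. Whole retinas of wild-type Balb/cJ mice, an albino strain, were sequenced in 3 groups of 3 mice. The naive mice are labelled as having had no light and no treatment. The vehicle mice were exposed to white light of 15000 lux for 1 h and received the solvent DMSO intraperitoneally every day from the day before the light. The TD139 mice had the same exposure with 15 mg/kg TD139, a small-molecule inhibitor of galectin-3, dissolved in DMSO. Retinas were taken at day 4. No group received TD139 or DMSO without light, so the effect of the injection cannot be told apart from that of light in the comparison of vehicle with naive mice. The mice of the study were young adults of both sexes, and the sex of each animal was not used here.

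Ganglion cells lie in the innermost cell layer of the retina and send their axons through the optic nerve to the brain. Their identity rests on transcription factors of the POU4F and LIM families, they release glutamate loaded into vesicles by VGLUT2, and their long axons are filled with neurofilaments. Bright white light mainly kills photoreceptors, which lie at the opposite side of the retina, so ganglion cell genes show how the inner retina stood in the same RNA. In RNA of whole tissue, fewer cells of a type and less RNA per cell cannot be told apart. Several of the 10 genes also have other sources in the retina. Isl1 is expressed in ON bipolar cells and cholinergic amacrine cells, neurofilament genes in horizontal cells, and Thy1 marks T lymphocytes of the mouse.

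The libraries held 26171887 to 30201517 reads on genes per mouse, so 3 reads corresponded to 0.0993 to 0.115 CPM (the count scaled to a common library size), far under every value of the 10 genes. The 10 genes together took 0.110 to 0.134% of the reads. Their summed normalised read count was 1142 to 1227 CPM in naive, 1113 to 1338 CPM in vehicle and 1101 to 1248 CPM in TD139 mice, and these ranges overlapped. Reads outside genes were 16.5 to 19.9% in naive and vehicle mice and 21.3 to 22.8% in TD139 mice. In tissue content, vehicle mouse 2 stood apart with a sum of 9433 CPM over 9 lens genes and of 765 CPM over 6 skeletal muscle genes, whereas the lens genes summed to 110 to 411 CPM in naive mice, 13.7 and 7.49 CPM in vehicle mice 1 and 3, and 11.5, 1.57 and 284 CPM in TD139 mice 1, 2 and 3. Vehicle mouse 2 was also the lowest of its group in 10 of 10 ganglion cell genes, and the counts and medians of the 10 genes in comparisons with vehicle mice are also given without it. TD139 mouse 1 had sums of 189 CPM over the microglia genes and 517 CPM over the endothelial and pericyte genes, against 64.4 and 54.6 CPM and 277 and 279 CPM in TD139 mice 2 and 3.

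Per kilobase of the longest annotated transcript, Sncg and Thy1 stood highest among the 10 genes in naive retinas, at mean levels of 224 and 173 CPM per kb, and their mice overlapped (171 to 273 and 163 to 185 CPM per kb). Nefl followed at 72.5 CPM per kb. Nefm and Nefh came next, at 36.6 and 33.7 CPM per kb, and also overlapped, so their order was not resolved. The levels then went down from Isl1 (23.8 CPM per kb) and Rbpms (17.8) to Slc17a6 (11.5), Pou4f1 (6.78) and Pou4f2 (3.16), with no overlap between neighbours. Among the neurofilament genes the light chain thus stood above both others per length, and the transcription factors Pou4f1 and Pou4f2 were the scarcest of the set.

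The comparison of vehicle with naive mice asks what light damage did to these genes. None of the 10 was called at an adjusted p-value under 0.05 in edgeR's quasi-likelihood test, against 7.8% of all genes tested, none had an unadjusted p-value under 0.05, and DESeq2 and limma also called 0, against 14.9% and 21.9% of all genes. The log2 fold changes ran from -0.07 for Nefl to 0.22 for Slc17a6, with a median of 0.06 (all genes: -0.00) and adjusted p-values of 0.233 to 0.968. The 95% confidence intervals together spanned -0.32 to 0.53, so any one gene may have differed by a fold of 0.800 to 1.45. The mice of both groups overlapped for each of the 10 genes, whereas they did not overlap for 33.3% of all genes tested. Without vehicle mouse 2 the median was 0.13, and none of the 10 was called, against 6.35% of all genes in that fit.

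**Figure D1:**
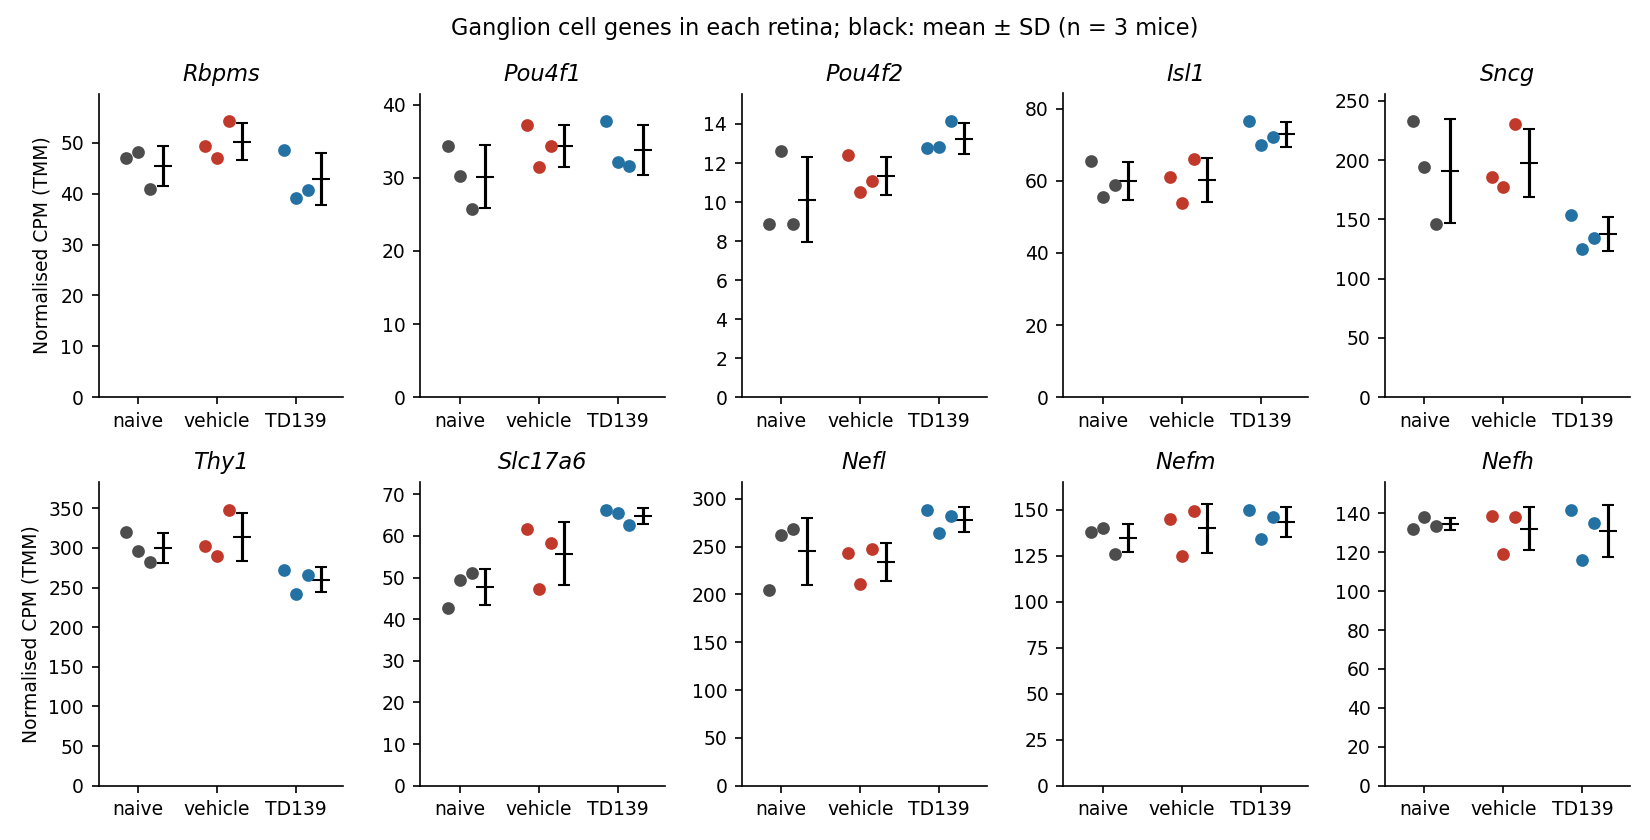
Normalised read counts (CPM after TMM scaling, linear axes from 0) of the 10 ganglion cell genes in the 9 mice. Each coloured point is 1 mouse, and the black mark and bar are the group's mean ± SD (n = 3). Naive and vehicle points overlap in every panel, and the TD139 points of Sncg and Thy1 lie below those of the vehicle mice.

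Marker genes of other retinal cells in the same libraries were counted with the same test. Of 12 rod genes, 8 fell in vehicle mice and none rose, with a median log2 fold change of -0.65. The summed rod level was 81227 to 93501 CPM in naive and 47044 to 66279 CPM in vehicle mice. Of 9 Müller glia genes 5 rose (median 0.75), and of 12 microglia genes 7 rose (median 2.22). Horizontal cells had 1 higher call of 4 genes, Calb1, which encodes calbindin (log2 fold change 0.42 ± 0.11 SE, edgeR adjusted p = 0.0450), and cones, bipolar and amacrine cells had none of 8, 11 and 13 genes (1, 2 and 5 at an unadjusted p-value under 0.05, 1, 2 and 3 called by DESeq2 and 2, 2 and 5 by limma). The 8 rod calls were all lost when any of naive mice 1, 2 and 3 or vehicle mice 1 and 3 was left out, with rod medians of -0.66 to -0.50. Without naive mouse 1 or 2 or vehicle mouse 3, Müller glia, microglia and horizontal cells had no call either. With an offset for transcript length and GC content the call of Calb1 ended (edgeR adjusted p = 0.0525). The same offset fit called another horizontal cell gene, Onecut2, higher (0.63 ± 0.18 SE, edgeR adjusted p = 0.0425). Of the amacrine cell genes it called Gad2, Tfap2a and Tfap2b higher (edgeR adjusted p = 0.0460, 0.0427 and 0.04998). Whether the ganglion cell genes differed from these lists was not tested.

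**Figure D2:**
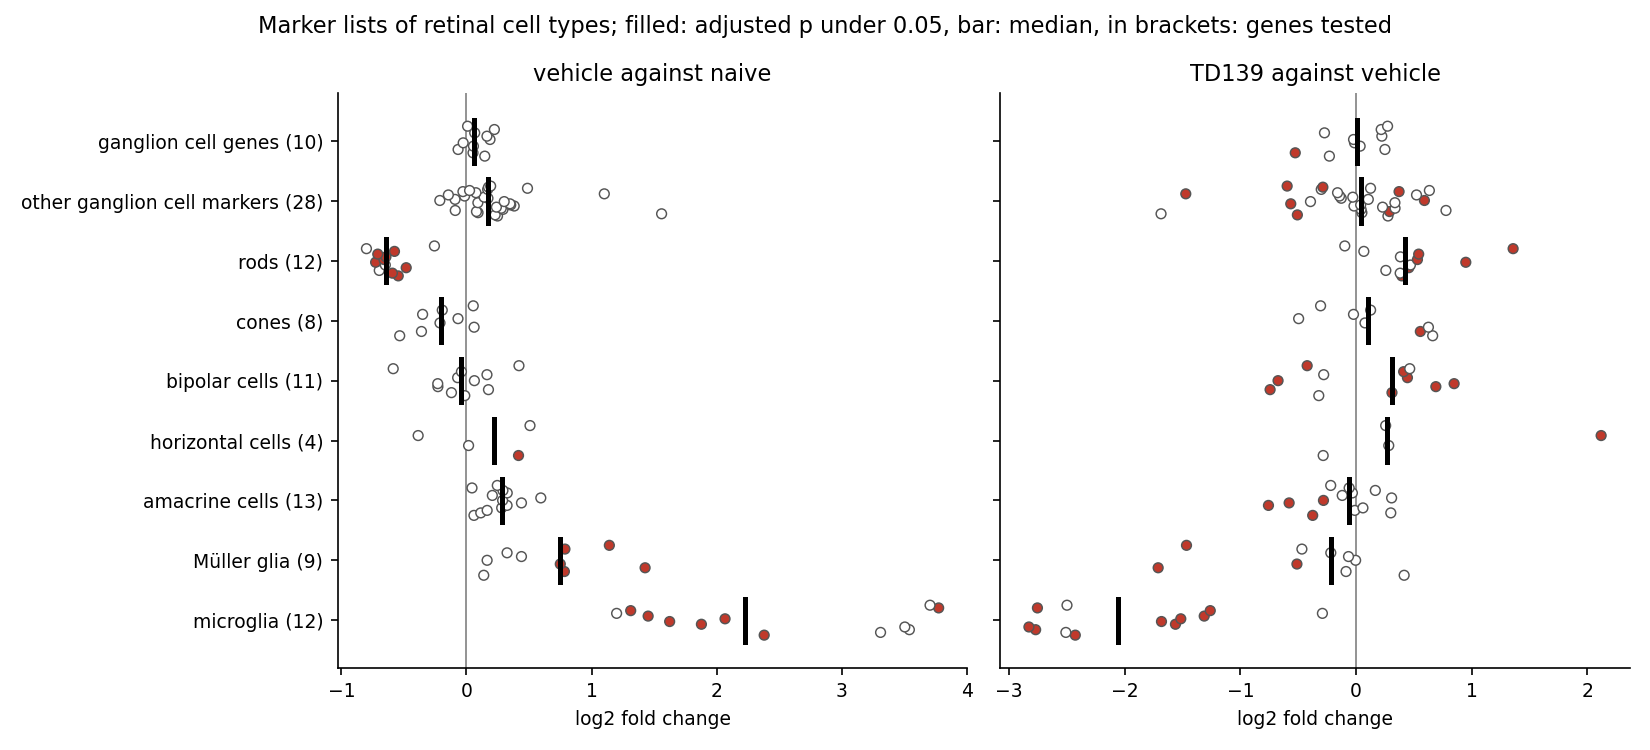
Log2 fold change of each tested gene (points) in marker lists of retinal cell types, for vehicle against naive mice (left) and TD139 against vehicle mice (right), with the list's median as a bar and genes at an adjusted p-value under 0.05 filled. The 10 ganglion cell genes lie around 0 in both panels, with Sncg the only filled point among them, while rod genes lie left of 0 in vehicle mice and microglia genes right of it.

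The comparison of TD139 with vehicle mice asks how the treatment changed the light-exposed retina. Of the 10 genes, 1 was called, Sncg, which was lower in TD139 mice, and this call ended and its sign turned when transcript length and GC content were corrected for by an offset. This compares with 33.4% of all genes tested that were called and 16.2% that were called lower. Their log2 fold changes had a median of 0.01 (all genes: -0.02), and 3 of the 10 had an unadjusted p-value under 0.05. The mice of both groups did not overlap for 6 of the 10 genes, 4 of them higher and 2 lower with TD139, against 51.5% of all genes tested, a share near this background. Without vehicle mouse 2, Sncg was again the only one of the 10 called, against 24.5% of all genes in that fit, and the median was -0.06. Without TD139 mouse 1, Sncg and Rbpms were called, both lower, against 38.4% of all genes, and the median was -0.04.

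Sncg encodes gamma-synuclein, a small cytosolic protein of the synuclein family that is abundant in ganglion cell bodies and axons. The gene lies on GRCm38 chromosome 14 from 34370274 to 34374789, minus strand, and its longest annotated transcript of 852 nucleotides is the shortest of the set. It measured 233, 194 and 146 CPM in the naive mice. It measured 185, 178 and 231 CPM in the vehicle mice and 154, 125 and 134 CPM in the TD139 mice. The TD139 mice thus lay below every vehicle mouse, while naive mouse 3 lay inside their range. Sncg fell by 0.53 on the log2 scale in TD139 against vehicle mice (SE 0.16, 95% confidence interval -0.89 to -0.16, edgeR adjusted p = 0.0317), and stood at 0.02 (adjusted p = 0.917) with the offset. Against naive mice the log2 fold change was -0.47 ± 0.16 SE (adjusted p = 0.0923) and did not pass. The promoter of this gene is shown because it was the only member called; RefSeq places it at chr14:34374620-34374919 on the minus strand of GRCm38.p6, from 250 bases before to 50 after the start.
Sncg promoter: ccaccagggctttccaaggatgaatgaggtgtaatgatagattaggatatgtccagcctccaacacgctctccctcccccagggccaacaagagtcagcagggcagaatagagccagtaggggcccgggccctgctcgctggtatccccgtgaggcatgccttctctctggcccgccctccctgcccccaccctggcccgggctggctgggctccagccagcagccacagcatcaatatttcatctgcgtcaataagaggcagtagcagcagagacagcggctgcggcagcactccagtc
None of the 3 motifs searched on both strands was found in this window, namely the TATA box (TATAAA, in 13.6% of 32851 RefSeq promoters of this length), the core letters bound by POU4F factors (ATTAAT, 4.75%) and the cAMP response element (TGACGTCA, 1.79%). None of these motifs contains another.

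The call for Sncg was lost in 5 of 9 fits that each left out 1 mouse. These were the fits without naive mouse 2 (adjusted p = 0.0511 in edgeR), which enters the shared estimate of spread, and without vehicle mouse 1 (adjusted p = 0.0518), vehicle mouse 3 (0.121), TD139 mouse 2 (0.126) or TD139 mouse 3 (0.104). Without vehicle mouse 3 the log2 fold change was -0.40, and without vehicle mouse 2, the library with the highest lens sum, it was -0.60 with an adjusted p of 0.0397. Sncb, which encodes beta-synuclein of the same family, was also called in this comparison. It fell from 1188 ± 92.2 to 874 ± 116 CPM (SD, n = 3 each; log2 fold change -0.44 ± 0.13 SE, edgeR adjusted p = 0.0221), and stood at 0.07 with the offset (adjusted p = 0.612).

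The change with TD139 moved with transcript length over all genes. In length deciles of the genes, ordered by their longest transcript, the median log2 fold change of TD139 against vehicle mice went from -0.45 in the shortest decile, which holds Sncg, and -0.31 in the next, which holds Thy1, to 0.11 in the decile of Nefh, Pou4f1 and Slc17a6 and 0.46 in the longest. When each library was corrected for transcript length and GC content by an offset, Sncg stood at 0.02 ± 0.11 SE (95% confidence interval -0.21 to 0.25, edgeR adjusted p = 0.917). Thy1 turned from -0.27 to 0.16 and Slc17a6 from 0.22 to -0.03. Over the 10 genes, the median with the offset was 0.11 and 1 gene was called, Isl1, against 3142 of all 15196 genes tested with the offset. The share of reads outside genes was higher in every TD139 mouse than in every other mouse, as given above, and its part in these values was not tested.

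**Figure D3:**
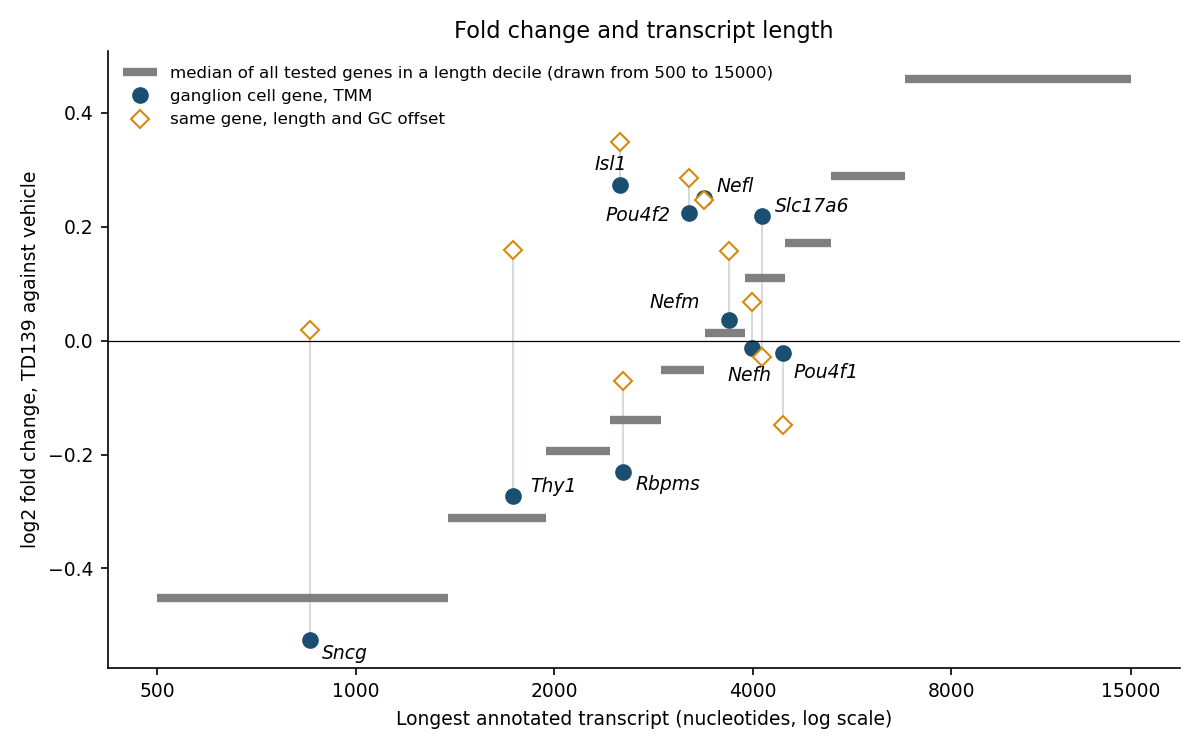
Log2 fold change of TD139 against vehicle mice (vertical axis) against the length of the longest annotated transcript in nucleotides (horizontal log axis). Grey bars are medians of all tested genes in length deciles, blue points the 10 ganglion cell genes after TMM scaling, and open diamonds their values with the offset for length and GC content. Sncg and Thy1 lie close to the grey bars of their length and move to 0.02 and 0.16, while Isl1 lies above its bar under both.

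Thy1 encodes a GPI-anchored cell surface glycoprotein used to label ganglion cells in reporter mice, and lies on chromosome 9 from 44043384 to 44048579, plus strand. It measured 320, 296 and 283 CPM in naive, 303, 290 and 348 CPM in vehicle and 272, 242 and 266 CPM in TD139 mice. The TD139 mice were below all mice of both other groups. The log2 fold change was -0.27 ± 0.10 SE against vehicle mice (edgeR adjusted p = 0.0570) and -0.21 ± 0.10 SE against naive mice (adjusted p = 0.197), and neither passed. Against vehicle mice Thy1 passed with DESeq2 (adjusted p = 0.0306), limma (0.0290), library size alone (0.0326) and flow cell run 1 alone (0.0463). Of the T lymphocyte genes, Cd3e and Cd3g, which encode chains of the T cell receptor complex, were at 0 in every mouse, and 6 T cell genes together summed to 1.54 to 1.69 CPM in naive, 2.05 to 4.00 CPM in vehicle and 0.751 to 2.26 CPM in TD139 mice. The 1 of them tested, Lck, a kinase of T cell signalling, had a log2 fold change of -1.22 ± 0.45 SE in TD139 against vehicle mice (edgeR adjusted p = 0.0560). The part of T cells in the Thy1 values was not tested.

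The POU4F transcription factors, which define ganglion cells, were not called in any comparison. Pou4f1 (chromosome 14, 104461676 to 104467999, minus strand), which encodes BRN3A, measured 34.4, 30.3 and 25.7 CPM in naive, 37.1, 31.4 and 34.4 CPM in vehicle and 37.7, 32.1 and 31.6 CPM in TD139 mice. All 3 groups overlapped. The log2 fold change was 0.19 ± 0.13 SE for vehicle against naive and -0.02 ± 0.13 SE for TD139 against vehicle mice (adjusted p = 0.364 and 0.911, edgeR). Pou4f2 (chromosome 8, 78433010 to 78436645, minus strand), which encodes BRN3B, needed for ganglion cell differentiation, measured 8.88, 12.6 and 8.87 CPM in naive, 12.4, 10.5 and 11.1 CPM in vehicle and 12.8, 12.8 and 14.1 CPM in TD139 mice. The TD139 mice were above those of both other groups, with naive mouse 2 and TD139 mouse 1 close to each other. The test did not pass against vehicle (0.22 ± 0.17 SE, adjusted p = 0.312) or naive mice (0.39 ± 0.17 SE, adjusted p = 0.152).

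Isl1 encodes a LIM homeodomain factor that acts with POU4F2 in ganglion cells, and lies on chromosome 13 from 116298281 to 116309689, minus strand. It measured 65.6, 55.5 and 58.8 CPM in naive and 61.2, 53.8 and 66.0 CPM in vehicle mice, which overlapped (log2 fold change 0.01 ± 0.10 SE). It measured 76.6, 69.9 and 72.3 CPM in TD139 mice, above every other mouse. The log2 fold change was 0.27 ± 0.10 SE against vehicle mice (edgeR adjusted p = 0.0622) and 0.28 ± 0.10 SE against naive mice (adjusted p = 0.104). Against vehicle mice it passed with DESeq2 (adjusted p = 0.0433) and limma (0.0359). With the offset for length and GC content it was 0.35 ± 0.10 SE against vehicle mice and passed (95% confidence interval 0.14 to 0.56, edgeR adjusted p = 0.0298), and against naive mice it did not (0.35 ± 0.10 SE, adjusted p = 0.125). Of 11 bipolar cell genes 5 rose and 3 fell in TD139 against vehicle mice, with a median of 0.31. Of the most abundant of these, Prkca, a kinase of rod bipolar cells, rose by 0.45 ± 0.12 SE (edgeR adjusted p = 0.0185), while Pcp2, a modulator of G-protein signalling in ON bipolar cells, fell by 0.67 on the log2 scale (SE 0.19, adjusted p = 0.0236). With the offset both calls ended (-0.04 and -0.33, adjusted p = 0.725 and 0.123), and 3 of the 11 rose and none fell. The part of bipolar cells in the Isl1 values was not tested. The Isl1 promoter is shown as that of the member called with the offset; it lies at chr13:116309639-116309938 on the minus strand, has a GC content of 69.0% against a median of 52.7% over all promoters, and holds none of the 3 motifs.
Isl1 promoter: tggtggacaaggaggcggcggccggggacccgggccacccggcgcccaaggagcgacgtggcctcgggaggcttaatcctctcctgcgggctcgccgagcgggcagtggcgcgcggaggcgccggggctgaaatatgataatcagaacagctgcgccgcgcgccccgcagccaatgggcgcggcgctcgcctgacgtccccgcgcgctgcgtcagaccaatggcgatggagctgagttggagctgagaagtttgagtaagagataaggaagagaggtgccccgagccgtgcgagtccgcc

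Rbpms encodes an RNA-binding protein that labels ganglion cells of all subtypes, and is also known in vascular smooth muscle and pericytes. It lies on chromosome 8 from 33782643 to 33929863, minus strand. Its level was 47.0, 48.3 and 41.0 CPM in naive, 49.5, 47.0 and 54.3 CPM in vehicle and 48.7, 39.2 and 40.7 CPM in TD139 mice, and the groups overlapped in each comparison. The log2 fold change was 0.15 ± 0.11 SE for vehicle against naive mice (edgeR adjusted p = 0.428) and -0.23 ± 0.11 SE for TD139 against vehicle mice (adjusted p = 0.134). The latter passed with limma (-0.27, adjusted p = 0.0384) and without TD139 mouse 1 (-0.33, edgeR adjusted p = 0.0443), and stood at -0.07 with the offset (edgeR adjusted p = 0.614). The summed level of 12 endothelial and pericyte genes was 218 to 300 CPM in naive, 383 to 514 CPM in vehicle and 277 to 517 CPM in TD139 mice. The part of these cells in the Rbpms values was not tested.

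Slc17a6 encodes VGLUT2, the vesicular glutamate transporter of ganglion cells, and lies on chromosome 7 from 51622006 to 51671119, plus strand. It measured 42.8, 49.4 and 51.1 CPM in naive, 61.7, 47.3 and 58.3 CPM in vehicle and 66.3, 65.6 and 62.7 CPM in TD139 mice. Vehicle mouse 2 was the only light-exposed mouse within the naive range. The log2 fold change was 0.22 ± 0.12 SE for vehicle against naive mice (edgeR adjusted p = 0.233) and 0.22 ± 0.11 SE for TD139 against vehicle mice (adjusted p = 0.156). Without vehicle mouse 2 the latter was 0.11 (adjusted p = 0.466). For TD139 against naive mice it was 0.44 ± 0.12 SE (95% confidence interval 0.19 to 0.69), with an adjusted p of 0.0503 that just missed the threshold. With the offset this value was 0.25 ± 0.10 SE (adjusted p = 0.226). Slc17a7, which encodes VGLUT1 of photoreceptors and bipolar cells, measured 1822 ± 106, 1505 ± 180 and 1821 ± 72.1 CPM in naive, vehicle and TD139 mice (SD, n = 3 each). Slc17a8, which encodes VGLUT3 of an amacrine cell type, measured 5.73 ± 0.982, 5.95 ± 1.59 and 8.81 ± 1.64 CPM. Neither was called in edgeR without the offset. With the offset Slc17a7 was called higher in TD139 than in vehicle mice (0.48 ± 0.11 SE, edgeR adjusted p = 0.0189). RefSeq gives Slc17a6 a pair of starts, and the downstream promoter at chr7:51624387-51624686, plus strand, was the only one of the 6 promoters found for 5 of the 10 genes to hold a searched motif, the letters ATTAAT in capitals, 83 bases before the start on the plus strand. The letters occur in 4.75% of all promoters, and the counts do not separate the starts.
Slc17a6 downstream promoter: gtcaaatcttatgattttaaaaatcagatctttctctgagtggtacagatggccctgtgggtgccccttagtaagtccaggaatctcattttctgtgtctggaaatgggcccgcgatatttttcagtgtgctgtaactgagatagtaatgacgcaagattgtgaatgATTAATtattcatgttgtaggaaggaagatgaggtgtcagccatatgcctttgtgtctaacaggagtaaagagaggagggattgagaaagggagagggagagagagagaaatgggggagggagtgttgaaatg

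The neurofilament genes encode the light, medium and heavy chains of the filaments that set axon calibre. Nefl (chromosome 14, 68083863 to 68089095, plus strand) measured 205, 262 and 268 CPM in naive, 243, 211 and 247 CPM in vehicle and 289, 264 and 282 CPM in TD139 mice. The TD139 mice were above all vehicle mice and overlapped the naive ones. The log2 fold change against vehicle mice was 0.25 ± 0.12 SE and did not pass (edgeR adjusted p = 0.112). Nefm (chromosome 14, 68082590 to 68124846, minus strand) measured 138, 140 and 126 CPM in naive, 145, 125 and 150 CPM in vehicle and 150, 134 and 146 CPM in TD139 mice. Nefh (chromosome 11, 4938754 to 4948064, minus strand) measured 132, 138 and 134 CPM in naive, 139, 119 and 138 CPM in vehicle and 142, 116 and 135 CPM in TD139 mice. The groups overlapped for Nefm and Nefh in all 3 comparisons, and their log2 fold changes lay between -0.04 and 0.09 (edgeR adjusted p = 0.553 to 0.933). Nefl and Nefm overlap on opposite strands in the annotation, and since the strand setting of the counting is not given in the sources used here, reads of the overlap cannot be assigned with certainty.

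**Figure D4:**
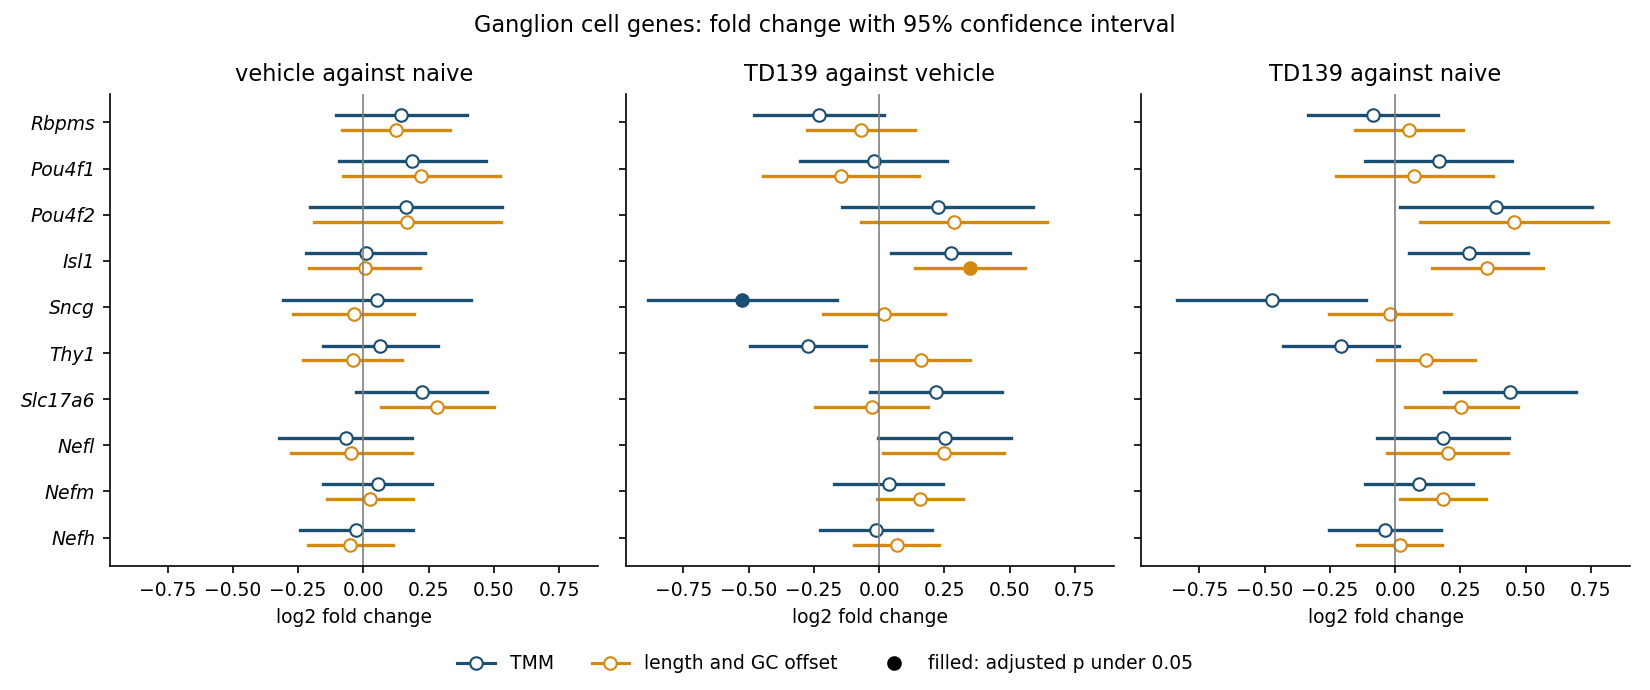
Log2 fold changes of the 10 genes with 95% confidence intervals in the 3 comparisons, after TMM scaling (blue) and with the offset for transcript length and GC content (orange), with filled points at an adjusted p-value under 0.05. Only Sncg after TMM scaling and Isl1 with the offset are filled, both for TD139 against vehicle mice.

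The comparison of TD139 with naive mice asks how far treated, light-exposed retinas stood from undamaged ones. Of the 10 genes 0 were called in edgeR, against 5.1% of all genes tested, and 4 had an unadjusted p-value under 0.05, namely Slc17a6, Sncg, Isl1 and Pou4f2. DESeq2 called 2 (Slc17a6 and Sncg) and 19.2% of all genes it tested, and limma called these as well as Isl1 and Thy1 and 36.0% of all genes. The median log2 fold change was 0.13 (all genes: -0.00), with 95% confidence intervals that together spanned -0.83 to 0.76. The mice of both groups did not overlap for 4 of the 10 genes, Slc17a6, Isl1 and Pou4f2 being higher and Thy1 lower, against 32.2% of all genes tested. This comparison and that of TD139 with vehicle mice share the TD139 mice, so the values of a gene in both are not independent.

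A further 28 genes known as markers of ganglion cells or of their subtypes were counted with the same test. None of the 28 was called for vehicle against naive mice in edgeR, with a median log2 fold change of 0.17, while 5 had an unadjusted p-value under 0.05. DESeq2 called 1 of them higher, limma 4 higher, and edgeR with the offset 2 higher, and none of these fits called one lower. For TD139 against vehicle mice 3 rose and 5 fell, with a median of 0.04, against 33.4% of all genes tested that were called, and for TD139 against naive mice none was called, with a median of 0.24 and 12 genes at an unadjusted p-value under 0.05 (DESeq2 called 5 higher and 1 lower, limma 9 and 4). Of the most abundant, Uchl1, a neuronal deubiquitinating enzyme, fell from 313 ± 17.2 to 207 ± 23.3 CPM (SD, n = 3 each; edgeR adjusted p = 0.0122), and Cartpt, a neuropeptide precursor of direction-selective ganglion cells, from 207 ± 9.93 to 145 ± 3.09 CPM (adjusted p = 0.00756). Tubb3, the neuronal beta-tubulin, fell from 172 ± 13.8 to 141 ± 15.7 CPM (adjusted p = 0.0464). With the offset for length and GC content, 1 of the 28 rose and 2 fell, and the calls of Uchl1, Cartpt and Tubb3 ended (-0.07, -0.04 and 0.14, edgeR adjusted p = 0.533, 0.772 and 0.327). Opn4, which encodes melanopsin of the intrinsically photosensitive subtype and was singled out after its values were seen, measured 7.05 ± 1.20, 6.98 ± 0.362 and 6.33 ± 1.90 CPM in naive, vehicle and TD139 mice and was not called.

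Of 17 tested genes for further transcription factors of ganglion cells, none was called for vehicle against naive mice in edgeR (3 at an unadjusted p-value under 0.05, 0 called by DESeq2 and 3 by limma), and 1 rose in each other comparison. With the offset for length and GC content, Ebf3 and Onecut2 were called higher after light (0.34 ± 0.09 SE and 0.63 ± 0.18 SE, edgeR adjusted p = 0.0384 and 0.0425). Onecut1 and Onecut2 are also markers of horizontal cells. Onecut1 rose with TD139 from 0.363 ± 0.182 CPM in vehicle to 1.59 ± 0.731 CPM (SD, n = 3 each; edgeR adjusted p = 0.0107), and Onecut2 rose from 4.15 ± 0.342 CPM in naive to 7.06 ± 0.643 CPM in TD139 mice (adjusted p = 0.0457). The call of Onecut2 in TD139 against naive mice ended with the offset and with the replicate number as a block. The most abundant of the list, Sox12, Ebf3 and Ebf4, were not called in any comparison.

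Genes of the neuronal and axonal cytoskeleton moved in both directions. None of 29 was called after light in edgeR (9 at an unadjusted p-value under 0.05, 5 called by DESeq2 and by edgeR with the offset, and 7 by limma). For TD139 against vehicle mice 10 rose and 8 fell (median 0.19), and with the offset 4 rose and 3 fell (median -0.01). Kif1b and Dync1h1, motors of axonal transport with long transcripts, rose by 0.78 ± 0.20 SE and 0.35 ± 0.10 SE on the log2 scale (edgeR adjusted p = 0.0148 and 0.0176), and Sptan1, which encodes alpha-spectrin, did not pass (0.06 ± 0.10 SE). With the offset Kif1b and Dync1h1 stood at 0.26 and -0.14 and neither was called (edgeR adjusted p = 0.147 and 0.248). Sptan1 was called lower with the offset (-0.27 ± 0.08 SE, edgeR adjusted p = 0.0417). For TD139 against naive mice 3 rose, Map1b, Kif5c and Ank2, by 0.76, 0.57 and 0.48 (adjusted p = 0.0488, 0.0406 and 0.0432), and 0 with the offset.

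Of 19 tested genes of the response to axon injury, 2 rose in vehicle mice. Chac1, a glutathione-degrading enzyme of the stress response, rose from 2.17 ± 0.154 CPM in naive to 5.45 ± 1.53 CPM in vehicle mice and stood at 1.66 ± 0.109 CPM in TD139 mice (SD, n = 3 each; edgeR adjusted p = 0.0203 for vehicle against naive and 0.00500 for TD139 against vehicle). Gal, which encodes the neuropeptide galanin, rose from 0.754 ± 0.327 to 2.12 ± 0.730 CPM and stood at 0.701 ± 0.0667 CPM with TD139 (adjusted p = 0.0456 and 0.0140). Without naive mouse 1, 2 or 3 or vehicle mouse 3 neither was called after light. With the offset for length and GC content, Sarm1 was called lower after light (-0.44 ± 0.11 SE, edgeR adjusted p = 0.0284). For TD139 against naive mice Sarm1 stood at 0.28 ± 0.11 SE with the offset and was not called (edgeR adjusted p = 0.229). For TD139 against vehicle mice 3 of the 19 rose and 5 fell. Sarm1 and Map3k12, a NAD-cleaving enzyme and a kinase of axon degeneration, rose by 0.74 ± 0.12 SE and 0.32 ± 0.09 SE, and Ddit3, a transcription factor of the unfolded protein response, fell by 0.41 on the log2 scale (SE 0.13; adjusted p = 0.00568, 0.0242 and 0.0318). With the offset 3 rose and 2 fell, and the calls of Map3k12, Ddit3 and Gal in this comparison ended (edgeR adjusted p = 0.562, 0.623 and 0.0686). Atf3 and Jun, which are induced in ganglion cells by cutting the optic nerve and were picked out after their values were seen, measured 13.6 ± 0.721 and 52.4 ± 1.78 CPM in naive and 18.8 ± 7.24 and 54.3 ± 3.75 CPM in vehicle mice (SD, n = 3 each), and neither was called.

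Of 14 tested genes of neurotrophic factors and their receptors, 1 rose after light. Lif, a cytokine of the interleukin-6 family that Müller glia are known to release when photoreceptors are injured, rose from 0.583 ± 0.369 to 3.56 ± 1.63 CPM and fell to 0.723 ± 0.122 CPM with TD139 (SD, n = 3 each; edgeR adjusted p = 0.0185 and 0.00701). The call of Lif after light was lost without naive mouse 1 or 2 or vehicle mouse 3. With the offset for length and GC content, Il6st was also called higher after light (0.58 ± 0.12 SE, edgeR adjusted p = 0.0173). Between TD139 and vehicle mice 2 genes rose, Ntrk3 (0.56 ± 0.14 SE) and Lifr (0.94 ± 0.20 SE), and 2 fell, Lif and Cntfr (-0.35 ± 0.10 SE). With the offset only Lif was called between TD139 and vehicle mice, and Ntrk3, Lifr and Cntfr stood at -0.23, 0.33 and 0.07 (edgeR adjusted p = 0.395, 0.120 and 0.670). Il6st and Gfra1 rose in TD139 against naive mice (0.66 ± 0.16 SE and 0.67 ± 0.16 SE, adjusted p = 0.0457 and 0.0454), and no gene was called in that comparison with the offset or with the replicate number as a block. Ntrk2, the receptor of the ganglion cell survival factor BDNF, was not called, with levels of 53.7 ± 8.09, 70.1 ± 15.7 and 63.6 ± 10.6 CPM in naive, vehicle and TD139 mice.

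The groups overlapped on the mean of the 10 genes. On the mean of the 10 genes' z-scores of log2 CPM over the 9 mice, TD139 mouse 1 (0.728) and vehicle mouse 3 (0.700) stood highest and naive mouse 3 (-0.748) and vehicle mouse 2 (-0.734) lowest, so each group spanned 0. TD139 mouse 1 was the highest of its group in 9 of the 10 genes, and TD139 mouse 2 the lowest in 7. The genes outside the set whose levels over the 9 mice were most like this mean were Col15a1 (Pearson's r = 0.970), Nrn1 (0.953), Arpp21 (0.943), Rap1gap (0.930) and Rab15 (0.922). These are descriptions over 9 mice chosen from all tested genes. Nrn1, which encodes neuritin, was 1 of the 28 further ganglion cell markers.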

How the data were processed

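RNA of whole retinas from 9 mice was sequenced with a stranded mRNA kit on 2 flow cells. The authors deposited unscaled whole-number counts of reads per gene symbol, 1 table per run of a mouse, made with BaseSpace RNA Express. The build is mm10 according to the submitters' processing notes. The aligner version and annotation are not given in the sources used here. Counts of both runs were summed, since runs of a mouse differed little (chi-square per degree of freedom 1.63 to 1.80, against 16.7 to 73.1 between mice of a group). Reads on no feature (16.5 to 22.8%) or on several (0.303 to 0.471%) were left out.

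The mouse was the replicate. edgeR 4.0.16 in R 4.3.3 was run on all genes and all 9 mice (filterByExpr, TMM, robust quasi-likelihood F test), with Benjamini-Hochberg adjustment over 15196 genes and calls under 0.05. The standard error is the log2 fold change divided by the square root of F. CPM values are TMM-scaled. Alternatives were DESeq2 1.42.0, limma 3.58.1 (voom with sample quality weights), other scalings and filters, only the groups compared, single flow cells, the replicate number as a block, an offset for transcript length and GC content (spline with 4 degrees of freedom), and each mouse left out. The steps were tested on simulated data for vehicle against naive mice: edgeR found 198 of 200 changed genes with 10 false calls among 15062. The planted changes were larger than any log2 fold change of the 10 genes, and the simulation held no length trend and no outlying mouse. It therefore does not show how well differences as small as theirs are found.

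Positions, lengths and GC content come from GENCODE M21 on GRCm38 (98.44% of symbols joined), and promoters from RefSeq. The 10 genes and all lists were chosen with earlier results of these data known. Named are the 10 genes, up to 3 of the most abundant tested genes of each list, the called genes where at most 5 of a list were called, and the 5 genes most like the mean of the 10. Some genes that meet this rule are not reported here.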

Additional observations from a re-analysis of the deposited data

How the results depend on the processing

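The number of the 10 genes called was 0 for vehicle against naive mice under all alternatives run, which called 0.00647 to 21.9% of all genes. For TD139 against vehicle mice it was 3 with DESeq2, 4 with limma, 2 with library size alone, 2 with flow cell run 1 alone (36.6, 46.3, 32.8 and 30.9% of all genes called), and 0 to 2 over the fits that left out 1 mouse each (10.5 to 38.4%). For TD139 against naive mice it was 2 with DESeq2, 4 with limma, 1 with RLE size factors, 1 with flow cell run 2 alone (19.2, 36.0, 4.99 and 5.94% of all genes called) and 0 to 2 over the fits that left out 1 mouse, 2 being without naive mouse 3 (17.4% of all genes, the others 0 to 10.7%). The labels' replicate numbers do not pair the mice (correlations of deviations -0.26 to 0.28), and with the replicate number as a block the counts were 0, 1 and 0 of the 10 genes (5.92, 31.4 and 0.0% of all genes), and Sncg stood at -0.54 for TD139 against vehicle mice (adjusted p = 0.0394).

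The signs of some differences turned under some alternatives, that of the 1 called gene, Sncg, among them, and the cause was not tested. For vehicle against naive mice these were Sncg (-0.00059) and Pou4f2 (-0.039) with limma, Nefl (0.029) and Nefh (0.071) with library size alone, Isl1 (-0.039) with flow cell run 1 alone, and Sncg (-0.037) and Thy1 (-0.041) with the offset for length and GC content (-0.041 and -0.043 with the replicate block as well). For TD139 against vehicle mice they were Nefm (-0.050) with library size alone, Nefh (0.0011) with flow cell run 2 alone, and with the offset Sncg (0.018), Nefh (0.067), Thy1 (0.16) and Slc17a6 (-0.029), which stood at 0.022, 0.067, 0.16 and -0.027 with the block as well. For TD139 against naive mice, Rbpms (0.054), Nefh (0.018) and Thy1 (0.12) turned with the offset (0.051, 0.015 and 0.12 with the block). Leaving out 1 mouse at a time, the log2 fold changes for vehicle against naive mice ran from -0.10 to 0.23 for Sncg, -0.17 to 0.0086 for Nefl, -0.061 to 0.041 for Nefh, -0.017 to 0.13 for Thy1 and -0.061 to 0.090 for Isl1. For TD139 against vehicle mice they ran from -0.039 to 0.085 for Nefm, -0.080 to 0.066 for Nefh and -0.11 to 0.040 for Pou4f1, and for TD139 against naive mice from -0.091 to 0.049 for Nefh.

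Counts over all genes depended on the setting. Vehicle against naive mice gave 746 higher and 439 lower calls, and 893 and 258 with library size alone, 1335 and 1041 with DESeq2, 1821 and 1512 with limma, 1133 and 871 with the offset, and 1 and 0 without naive mouse 2. TD139 against vehicle mice gave 2617 and 2455, and 1942 and 3040 with library size alone, 1526 and 1616 with the offset and 867 and 759 without TD139 mouse 2. TD139 against naive mice gave 413 and 362, and 2995 and 2472 with limma, 1431 and 1149 with DESeq2, 1 and 0 with only these groups in the fit, and 0 with the replicate block or with the offset. With 3 mice a group, differences within the confidence intervals given could not be resolved.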

Other observations

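Among the marker lists of other cells, TD139 against vehicle mice gave 6 higher calls of 12 rod genes (median log2 fold change 0.43), 9 lower calls of 12 microglia genes (median -2.06) and 3 lower calls of 9 Müller glia genes, Vim, Clu and Dkk3. Clu, which encodes the secreted chaperone clusterin, fell by 1.71 on the log2 scale (SE 0.30, edgeR adjusted p = 0.00651). Of the inner retinal neurons that adjoin ganglion cells, 4 of 13 amacrine cell genes fell, among them Calb2, which encodes calretinin and is also made by ganglion cells, from 517 ± 56.9 to 399 ± 37.4 CPM (SD, n = 3 each; edgeR adjusted p = 0.0346). With the offset for transcript length and GC content, amacrine cells had no call for TD139 against vehicle mice. Of 4 genes listed for astrocytes, which lie in the nerve fibre layer along ganglion cell axons, 1 was called higher in vehicle against naive mice (Aldh1l1, log2 fold change 1.32 ± 0.33 SE, edgeR adjusted p = 0.0459). In TD139 against vehicle mice 2 were called lower (Gfap, -2.96 ± 0.67 SE, adjusted p = 0.0182, and Aldh1l1, -1.73 ± 0.33 SE, adjusted p = 0.00825). Pax2 and S100b were not called in either comparison. Gfap was not called after light (2.25 ± 0.63 SE with the offset, edgeR adjusted p = 0.0626). The cells that made these RNAs were not tested. Of the genes that mark oligodendrocytes of the optic nerve, the 4 tested gave 1 call in each direction both after light and with TD139.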
